A study of Mus musculus with 12 samples.

Results

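The 9 genes Ms4a1, Cd79a, Cd79b, Cd22, Blk, Blnk, Btk, Ebf1 and Cd37 encode parts of the B cell antigen receptor, its signalling chain and surface and nuclear proteins of mature B cells. They were chosen by symbol, all 9 were found among the 53715 gene identifiers of the count table, and all 9 passed the filter on low counts. The study sequenced spleen RNA of 12 mouse samples, 4 in each of 3 groups. Every sample carried the genotype labelled BXSB.Cg-Cd8atm1Mak Il15tm1Imx Yaa (Yaa DKO), the Yaa locus of lupus-prone BXSB mice with targeted alleles of Cd8a and Il15, so the controls carry these alleles too and no group is wild type. The first group was untreated at 6 weeks of age, before symptoms. Both other groups were 10 weeks old, when symptoms are present. One was untreated, and the other drank water with 6 g/L of 2-deoxyglucose (2DG), a glucose analogue that inhibits glycolysis. The labels number the samples from 1 to 12 over the groups and do not say that each came from its own mouse, so p-values measure only the spread among samples, part of which may be technical.

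The B cell receptor is a membrane immunoglobulin that binds antigen, held by a pair of signalling chains, Ig-alpha and Ig-beta. When antigen clusters the receptor, Src family kinases phosphorylate the tails of these chains, Syk docks there, and an adaptor brings the kinase Btk to phospholipase C, which starts calcium and NF-kappa-B signalling; inhibitory receptors such as CD22 recruit phosphatases that damp the response. The spleen is the largest store of mature B cells, and many of these genes are switched off when a B cell becomes a plasma cell, while membrane immunoglobulin gives way to the secreted form.

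On chromosome 7 of GRCm38 lie 3 of the genes. Cd79a (ENSMUSG00000003379.7, 24897381 to 24902197) is on the plus strand, and Cd22 (ENSMUSG00000030577.14, 30865402 to 30880342) and Cd37 (ENSMUSG00000030798.15, 45233632 to 45239115) are on the minus strand. Cd79b (ENSMUSG00000040592.11, 106311341 to 106314762, minus strand) and Ebf1 (ENSMUSG00000057098.14, 44617317 to 45008091, plus strand) are on chromosome 11. On the minus strand of chromosome 19 are Ms4a1 (ENSMUSG00000024673.9, 11249675 to 11266241) and Blnk (ENSMUSG00000061132.13, 40928927 to 40994535). Blk (ENSMUSG00000014453.4, 63372836 to 63417037, minus strand) is on chromosome 14 and Btk (ENSMUSG00000031264.13, 134542336 to 134583570, minus strand) on chromosome X. Cd22 shares 479 exon bases, 9.5% of its exons, with Gm29439 on the plus strand, a model with 1 to 6 counts per library, and Cd37 shares 13 exon bases with Tead2.

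Ebf1 encodes a factor that binds the promoters of receptor genes in B cells, so promoter stretches are shown for 3 genes: Cd79a, Cd22 and Btk. Cd79a is a textbook target of this factor and Btk is the downstream kinase. Cd22 alone, of the 6 genes that could be searched, had a match to the core motif of the factor. The RefSeq promoter table (GRCm38.p6) held 6 of the 9 genes. The printed stretches are those outside every annotated exon, written 5′ to 3′ on the gene's strand: chr7:24897247-24897380 (plus) for Cd79a, chr7:30879029-30879176 (minus) for Cd22 and chrX:134583141-134583390 (minus) for Btk. The Cd22 and Btk stretches lie within the gene bounds given above, each before a RefSeq start that is itself inside those bounds. Capitals mark the EBF core CCCNNGGG and the E-box CANNTG.
Cd79a: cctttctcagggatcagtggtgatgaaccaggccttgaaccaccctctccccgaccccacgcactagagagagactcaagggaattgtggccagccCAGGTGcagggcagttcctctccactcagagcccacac
Cd22: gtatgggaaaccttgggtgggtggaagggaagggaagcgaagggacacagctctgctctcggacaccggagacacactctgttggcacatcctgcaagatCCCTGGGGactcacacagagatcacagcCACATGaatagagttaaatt
Btk: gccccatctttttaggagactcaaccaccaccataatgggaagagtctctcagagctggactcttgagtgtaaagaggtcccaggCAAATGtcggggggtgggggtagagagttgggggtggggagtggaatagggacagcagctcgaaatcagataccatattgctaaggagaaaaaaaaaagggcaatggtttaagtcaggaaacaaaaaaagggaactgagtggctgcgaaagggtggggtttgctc
The EBF core, searched on both strands in the 250 bases before each start, was found for 1 of the 6 genes (Cd22, as CCCTGGGG) and in 11.8% of the 32851 promoters of the table. An E-box was found for all 6 and in 66.2% of promoters. The octamer ATGCAAAT was found for Blnk and in 1.6% of promoters. The short Ets core GGAA was found for all 6 and in 93.4% of promoters. No matches of different motifs shared bases in these genes, and a match is a description of letters, not of binding. Only exact matches were counted, so a gene without a match, such as Cd79a for the EBF core, may still hold a site that departs from these letters.

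The depth was 15596040 to 26079979 counts per library. Cd8a had 582 to 1414 counts per library and Il15 had 82 to 169, but a count over a whole gene does not separate an intact from a targeted allele. The untreated 10-week libraries varied most: their biological coefficient of variation, the spread between libraries beyond counting error, was 0.241, against 0.127 at 6 weeks and 0.114 with 2DG. Within the untreated 10-week group, replicates 6 and 8 stood at opposite ends for most of the genes described here. The changes are given with all libraries and, for the 2 comparisons that use this group, without each of these replicates.

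In untreated spleens at 6 weeks all 9 genes were well above the detection limit. Levels are counts scaled by library size (CPM, with TMM normalization), and per kb of exon where genes are compared. The signalling chains led the order: Cd79b stood at 402 ± 35.4 CPM per kb (SD, n = 4) and Cd79a at 350 ± 24.1 CPM per kb, with overlapping ranges. Cd37 and Ms4a1 followed at 163 ± 20.1 and 162 ± 12.9 CPM per kb, also overlapping, and then Cd22 at 131 ± 7.24 CPM per kb, whose range touched that of Cd37 but not that of Ms4a1. The intracellular proteins were lower, with Blk at 93.5 ± 11.0, Btk at 58.8 ± 3.66 and Blnk at 39.1 ± 1.59 CPM per kb, none overlapping its neighbour. Ebf1, a transcription factor, was lowest at 19.95 ± 2.2 CPM per kb. With 2DG the order of the means was the same. In untreated spleens at 10 weeks Cd22 stood above Ms4a1, at 126 ± 27.8 and 122 ± 43.5 CPM per kb, with overlapping ranges.

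**Figure D1:**
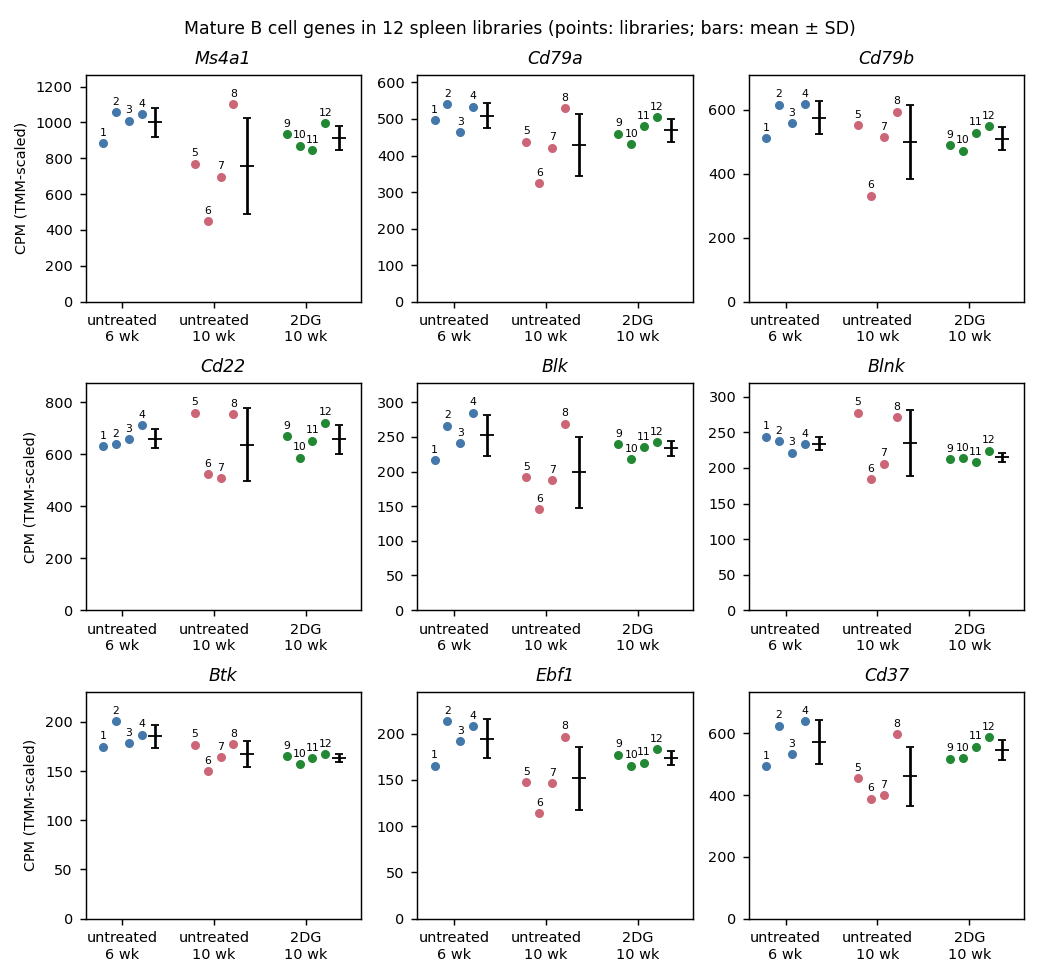
CPM (linear axis from 0) of each gene in the 12 libraries; points are libraries with their replicate number, and bars are the mean and SD of each group of 4. In the untreated 10-week group replicate 6 is the lowest library for 8 of the 9 genes and replicate 8 the highest for 7.

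Cd79a encodes Ig-alpha, which carries the signal of the receptor into the cell. It stood at 497, 541, 465 and 534 CPM in 6-week replicates 1 to 4, at 438, 324, 422 and 531 CPM in untreated 10-week replicates 5 to 8, and at 459.8, 430.4, 480.2 and 506 CPM in 2DG replicates 9 to 12. Untreated replicates 5, 6 and 7 lay below every 6-week library, and replicate 8 lay within the 6-week range. The log2 change with age was -0.25 (SE 0.12, 95% interval -0.50 to 0.01, edgeR adjusted p = 0.304), and between 2DG and untreated spleens at 10 weeks it was 0.13 (SE 0.12, interval -0.12 to 0.39, edgeR adjusted p = 0.545).

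Cd79b encodes Ig-beta, the partner chain. Its levels were 512, 615, 556.5 and 617 CPM in the 6-week libraries, 552, 331, 515 and 594 CPM in the untreated 10-week libraries, and 489, 472, 528 and 548 CPM with 2DG. Only replicate 6 lay below the 6-week range among the untreated 10-week libraries. The changes were -0.21 with age (SE 0.14, edgeR adjusted p = 0.494) and 0.03 with 2DG at 10 weeks (SE 0.14, edgeR adjusted p = 0.923).

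Because the chains form a heterodimer, their ratio within a library was compared as well, which does not depend on library size. Cd79b over Cd79a in counts was 1.13 ± 0.0715 at 6 weeks, 1.156 ± 0.106 in the untreated 10-week group and 1.086 ± 0.0166 with 2DG (SD, n = 4 each). The ratio ranged from 1.023 to 1.259 in the untreated 10-week libraries and from 1.063 to 1.1 with 2DG. No difference passed a two-sided exact permutation test: the log2 difference was 0.03 with age (exact p = 0.743, adjusted 0.743), -0.09 for 2DG at 10 weeks (exact p = 0.314, adjusted 0.471) and -0.06 for 2DG against 6 weeks (exact p = 0.286, adjusted 0.471). The smallest p that 4 against 4 libraries allow is 0.0286, before adjustment over the 3 tests. A lone difference at that p would not have passed once adjusted. In replicate 6, the lowest library for both chains, the ratio was 1.023.

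The antigen-binding part of the receptor followed another order across the same libraries. Ighm, the IgM constant region, stood at 20170, 14590, 5710 and 9894 CPM in untreated 10-week replicates 5 to 8, against 8194 to 12580 CPM at 6 weeks and 6176 to 10440 CPM with 2DG. Replicate 6, where both signalling chains were lowest, thus had Ighm above the 6-week range. Ighd, the IgD constant region carried by mature naive B cells, stood at 1008, 1062, 909 and 1155 CPM in the same 4 libraries, against 953 to 1137 CPM at 6 weeks and 936 to 1157 CPM with 2DG. Neither passed in any comparison (edgeR adjusted p from 0.289 to 0.921). Gene counts do not separate membrane from secreted immunoglobulin transcripts.

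Ms4a1 encodes CD20, a surface protein of B cells from the pre-B stage onward that plasma cells lack. In the untreated 10-week group it had the widest spread of the set, with a coefficient of variation of 35.6%, though at 6 weeks (8.01%) Cd37 varied more (12.4%) and with 2DG (7.41%) Cd22 did (8.47%). It stood at 884, 1059, 1010 and 1046 CPM in the 6-week libraries, 771, 450.1, 697.5 and 1102 CPM in the untreated 10-week libraries, and 936, 871, 847 and 997 CPM with 2DG. Replicates 5, 6 and 7 lay below the 6-week range and replicate 8 lay above it. The log2 change with age was -0.40 (SE 0.20, interval -0.84 to 0.04, edgeR adjusted p = 0.329) and that with 2DG at 10 weeks was 0.27 (SE 0.20, interval -0.17 to 0.71, edgeR adjusted p = 0.447).

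Cd37 encodes a tetraspanin, a membrane organiser of B cells. The levels were 493, 625, 534 and 639 CPM in the 6-week libraries, 456, 389, 399.8 and 599 CPM in the untreated 10-week libraries, and 519, 520.2, 557 and 589 CPM with 2DG. Again replicates 5, 6 and 7 lay below the 6-week range, while all 2DG libraries lay within it. Of the 9 genes it had the smallest adjusted p for 2DG at 10 weeks (log2 change 0.25, SE 0.13, interval -0.03 to 0.52, edgeR adjusted p = 0.268), and its change with age was -0.31 (SE 0.13, edgeR adjusted p = 0.237).

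Cd22 encodes a sialic acid-binding receptor that inhibits receptor signalling. It stood at 631, 639, 658.5 and 712 CPM in the 6-week libraries, 760.3, 523, 509 and 756 CPM in the untreated 10-week libraries, and 669, 587, 653 and 722 CPM with 2DG. In the untreated 10-week group it split the libraries in a different way from Ms4a1 and Cd37: replicates 5 and 8 lay above the 6-week range and replicates 6 and 7 below it. The group means were therefore close, with log2 changes of -0.05 with age (SE 0.13, edgeR adjusted p = 0.874) and 0.05 with 2DG at 10 weeks (SE 0.13, edgeR adjusted p = 0.87). Both turned sign when a single untreated library, replicate 6 or 7, was left out.

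Blk encodes a Src family kinase of B cells that phosphorylates the receptor tails. Its levels were 217, 266, 241 and 285 CPM in the 6-week libraries, 192.5, 146, 187 and 269 CPM in the untreated 10-week libraries, and 239, 218, 235 and 242 CPM with 2DG. Replicates 5, 6 and 7 lay below every 6-week library, and every 2DG library lay inside the 6-week range. The log2 change was -0.34 with age (SE 0.15, edgeR adjusted p = 0.262) and 0.23 with 2DG at 10 weeks (SE 0.15, edgeR adjusted p = 0.368).

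Blnk encodes the adaptor that links Syk to Btk and phospholipase C. It was measured at 244, 238, 222 and 233 CPM in the 6-week libraries, at 278, 184.5, 206 and 272 CPM in the untreated 10-week libraries, and at 212, 213, 209 and 225 CPM with 2DG. Like Cd22, it lay above the 6-week range in replicates 5 and 8 and below it in replicates 6 and 7. The change with age was 0.004 (log2, SE 0.11, edgeR adjusted p = 0.989), and the change with 2DG at 10 weeks was -0.13 (SE 0.11, edgeR adjusted p = 0.515).

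Btk encodes the Tec family kinase that activates phospholipase C, and its loss blocks B cell maturation. The levels were 175, 201, 178 and 187 CPM in the 6-week libraries, 177, 149.7, 164 and 177 CPM in the untreated 10-week libraries, and 165, 158, 163 and 167 CPM with 2DG. It varied least in the untreated 10-week group, with a coefficient of variation of 7.83% against 19.8% to 35.6% for the other 8 genes. All 4 2DG libraries lay below all 4 at 6 weeks, the one case of no overlap among the 27 gene comparisons, where the log2 change was -0.18 (SE 0.07, interval -0.32 to -0.04, edgeR adjusted p = 0.185). Groups did not overlap in that comparison for 15.7% of all genes tested, and 7.69% were lower with 2DG in this way. The alternative voom fit with quality weights, which gives variable libraries less weight, called Btk lower there (log2 change -0.20, SE 0.05, adjusted p = 0.0356), along with 8.87% of all genes in either direction, and the adjusted p over all alternatives ran from 0.0356 to 0.414.

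Ebf1 encodes a transcription factor that starts and maintains the B cell programme. It stood at 165, 213, 192 and 208 CPM in the 6-week libraries, at 148, 114, 147 and 197 CPM in the untreated 10-week libraries, and at 177, 166, 169 and 183 CPM with 2DG. Replicates 5, 6 and 7 were below the 6-week range and replicate 8 was within it. Of the 9 genes Ebf1 had the smallest adjusted p with age (log2 change -0.36, SE 0.13, interval -0.65 to -0.07, edgeR adjusted p = 0.198). Against untreated spleens at 10 weeks the 2DG change was 0.20 (SE 0.13, edgeR adjusted p = 0.401).

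The first comparison asked how untreated spleens at the symptomatic age differed from those before symptoms. None of the 9 genes passed (edgeR adjusted p from 0.198 to 0.989), and of all 18542 genes tested 0.00539% passed. Log2 changes were negative for 8 of 9, all but Blnk, with a median of -0.25 against 0.01 over all genes tested. Of all genes 51.5% had a positive change. At an unadjusted p under 0.05, 4 genes passed (Blk, Btk, Ebf1 and Cd37), as did 17.1% of all genes. DESeq2 called 0 of 9 and 1.87% of its 36546 genes. Its shares, here and below, are over genes not filtered for low counts, a wider base than that of the main edgeR fit. In bulk spleen RNA, fewer B cells and less RNA of these genes per B cell cannot be told apart.

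The effect of 2DG was read at 10 weeks, in treated against untreated spleens. Again 0 of the 9 genes passed (edgeR adjusted p from 0.268 to 0.923), where 7.42% of all genes did, 401 higher and 975 lower. The log2 changes were positive for 7 of 9, all but Blnk and Btk, with a median of 0.13 against 0.01 over all genes. Positive changes made up 51.8% of all genes. No member reached an unadjusted p under 0.05, which 24.5% of all genes did. DESeq2 called 0 of 9 and 6.3% of its genes (2304 of 36546), beside 1376 genes called by edgeR. The 2DG libraries lay within the range of the untreated 10-week libraries for every gene of the set.

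In the third comparison, 2DG at 10 weeks was set against untreated spleens at 6 weeks, which differ in both age and treatment. None of the 9 passed (edgeR adjusted p from 0.185 to 0.989), beside 0.129% of all genes. This fit shares 1 estimate of the spread over the 3 groups, including the more variable untreated 10-week group. With only the compared groups fitted, 0 of 9 passed (lowest edgeR adjusted p = 0.0625), beside 7.54% of all genes. In that fit 3 of the 9 had an unadjusted p under 0.05. The share of all genes at that p was not counted there, so this does not set the 9 genes apart. All 9 log2 changes were negative but small, from -0.18 for Btk to -0.01 for Cd22, with a median of -0.12 against -0.002 over all genes. Of all genes 49.5% were positive. In the fit of all 12 libraries Btk alone had an unadjusted p under 0.05, as did 16.9% of all genes. DESeq2 called 0 of 9 and 2.47% of its genes. The 3 comparisons share groups, so their values for these genes are not independent of each other. Nor are the signs of the 9 genes, which were correlated over the 12 libraries (pairwise r of log2 CPM from 0.419 to 0.982).

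**Figure D2:**
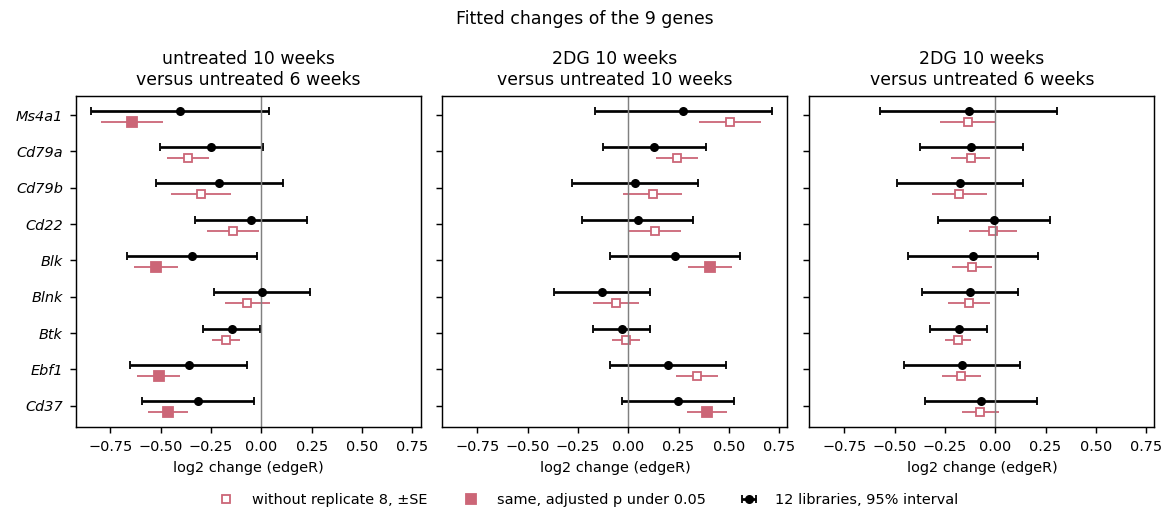
Fitted log2 changes (edgeR) of the 9 genes in the 3 comparisons: black points with 95% intervals use all 12 libraries, and squares with SE bars leave out untreated 10-week replicate 8, filled where the adjusted p is under 0.05. No black point passes. Without replicate 8, a library singled out by its values in these genes, 4 genes pass as lower with age and 2 as higher with 2DG at 10 weeks.

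What set the untreated 10-week group apart was its spread. The coefficient of variation of CPM was largest in that group for all 9 genes, with a median of 22% against 8.01% at 6 weeks and 6.12% with 2DG. Over all genes tested the medians were 16.6%, 10.3% and 9.66%, and the group had the largest spread for 65.7% of them. Among the 2510 tested genes with a mean of at least 100 CPM, which are less affected by counting error, the medians were 10.2%, 5.73% and 5.45%, and the group had the largest spread for 74.3%. Averaged over the 9 genes, the log2 difference from the 6-week mean was -0.15, -0.63, -0.33 and 0.09 in untreated replicates 5 to 8. It was -0.12, -0.20, -0.12 and -0.02 in 2DG replicates 9 to 12. In replicate 6 all 9 genes lay below the 6-week range, from Ms4a1 at -1.15 to Btk at -0.30. In replicate 7, 8 of 9 lay below it, all but Cd79b, and in replicate 8 none did and 3 lay above. How many of all genes lay outside the 6-week range in these libraries was not counted. These counts therefore describe the 9 genes and do not set them apart from other genes.

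**Figure D3:**
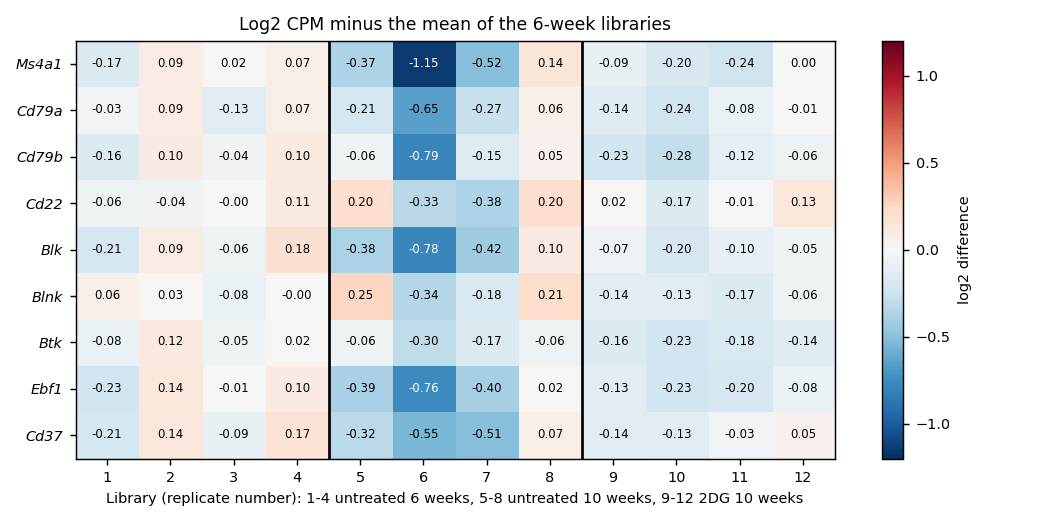
Log2 CPM of each gene minus the mean of the 4 libraries at 6 weeks, for the 12 libraries (colour scale from -1.2 to 1.2, with the value in each cell). Replicate 6 is negative for all 9 genes, replicate 5 is positive for Cd22 and Blnk and negative for the other 7, and the 2DG libraries stay between -0.28 and 0.13.

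The comparisons turned on replicate 8. Without it, edgeR called 4 of the 9 genes lower with age: Ms4a1 (log2 change -0.64, adjusted p = 0.0284), Blk (-0.52, adjusted p = 0.0158), Ebf1 (-0.51, adjusted p = 0.0152) and Cd37 (-0.46, adjusted p = 0.0173), with Cd79a next (-0.36, adjusted p = 0.0503). In that fit 8.33% of all genes were called and 3.76% were called lower. For 2DG at 10 weeks, Blk (0.41, edgeR adjusted p = 0.0312) and Cd37 (0.39, edgeR adjusted p = 0.0249) were called higher, beside 11.8% of genes called and 4.05% called higher. Without replicate 6 instead, 0 of 9 passed in each comparison, where 0%, 9.71% and 1.83% of all genes did in the order given above. Nothing in the labels separates replicate 8 or replicate 6 from its group. Both were singled out by their values in these same genes. The adjusted p without replicate 8 therefore describe dependence on that library and are not a separate test of change.

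The size of most changes moved with these 2 libraries. With age, Ms4a1 moved from -0.64 without replicate 8 to -0.22 without replicate 6 (log2, edgeR adjusted p = 0.0284 and 0.382). Between the same fits Blk moved from -0.52 to -0.22, Ebf1 from -0.51 to -0.24 and Cd37 from -0.46 to -0.24 (edgeR adjusted p without replicate 6 = 0.35, 0.252 and 0.333). Cd79a moved from -0.36 to -0.13, Cd79b from -0.30 to -0.05 and Btk from -0.17 to -0.10, and without replicate 6 their adjusted p were 0.422, 0.758 and 0.404 (edgeR). Cd22 and Blnk turned from -0.14 and -0.07 to 0.04 and 0.11.

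For 2DG at 10 weeks Ms4a1, Blk, Cd37, Ebf1 and Cd79a had their largest values without replicate 8, where Blk was 0.41 and Cd37 0.39. Ms4a1 was 0.51 without replicate 8 and 0.09 without replicate 6 (log2, edgeR adjusted p = 0.0533 and 0.712). Ebf1 was 0.34 and 0.08 (edgeR adjusted p = 0.0563 and 0.673), and Cd79a was 0.24 and 0.01 (edgeR adjusted p = 0.153 and 0.937). Without replicate 6, Blk was 0.11 and Cd37 0.17 (edgeR adjusted p = 0.607 and 0.425). The other 4 genes stayed between -0.23 (Blnk, without replicate 6) and 0.13 (Cd22, without replicate 8) in both fits, with adjusted p from 0.112 to 0.948 (edgeR).

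Other cell type genes differed between the same libraries, and their part in the values of the B cell genes was not tested. The 9 genes summed to 3772, 2612, 3247 and 4496 CPM in untreated replicates 5 to 8, against 3818 to 4462 CPM at 6 weeks and 3635 to 4180 CPM with 2DG. The 10 neutrophil genes summed to 498.9, 3553, 1902 and 665 CPM in those 4 libraries, so replicate 6 was highest where the B cell genes were lowest. They ranged from 937 to 2699 CPM at 6 weeks and from 804 to 2085 CPM with 2DG. The 12 T cell genes were also highest in replicate 6, at 1074 CPM against 669 to 789 CPM in the other 3, and ran from 738 to 1017 CPM at 6 weeks and from 695 to 967 CPM with 2DG. Monocyte and macrophage genes (10) summed to 3070, 4499, 4727 and 3453 CPM in replicates 5 to 8, with 3406 to 3889 CPM at 6 weeks and 3531 to 3783 CPM with 2DG. Erythroid genes (11 matched of 12) summed to 8087, 2419, 18700 and 8393 CPM, with 6352 to 9542 CPM at 6 weeks and 11680 to 24470 CPM with 2DG. No gene of these 4 lists was at 0 counts in any library.

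Plasma cell genes did not follow the mature B cell genes. The 12 plasma cell genes summed to 7286, 4118, 7058 and 4439 CPM in untreated replicates 5 to 8, so replicates 6 and 8, at opposite ends for the B cell genes, were close to each other. They ranged from 2377 to 4400 CPM at 6 weeks and from 1820 to 2745 CPM with 2DG. With 2DG at 10 weeks all 12 changes were negative (median log2 change -1.47). Of these, 11 passed, beside 5.26% of all genes called lower, where none of the 9 mature B cell genes passed. Xbp1, a factor of the secretory programme, stood at 596.5 CPM without and 216 CPM with 2DG on average (log2 change -1.46, SE 0.17, edgeR adjusted p = 0.00176). Irf4, Prdm1 and Sdc1 fell too, with log2 changes of -0.96, -1.47 and -1.84 (edgeR adjusted p = 0.00176 each).

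**Figure D4:**
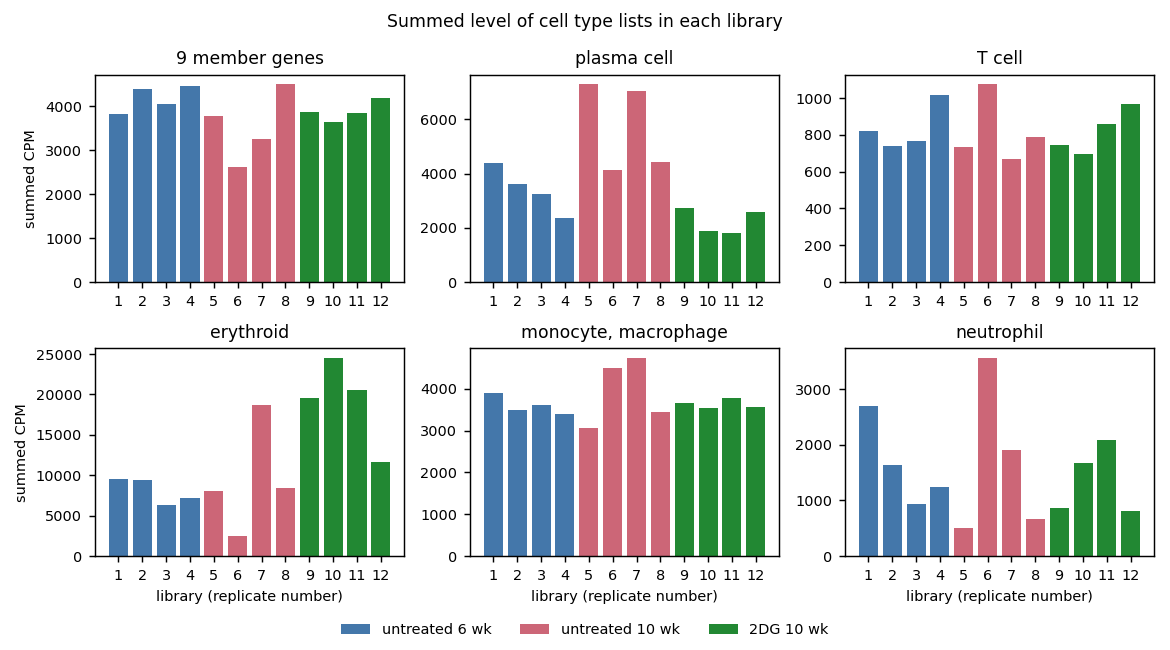
Summed CPM of the 9 genes and of 5 cell type lists in each library (bars from 0, each panel with its own linear axis; replicates 1 to 4 untreated 6 weeks, 5 to 8 untreated 10 weeks, 9 to 12 2DG 10 weeks). Replicate 6 is lowest for the 9 genes at 2612 CPM and highest for neutrophil genes at 3553 CPM, while plasma cell genes are higher in replicates 5 and 7 than in 6 and 8.

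The other genes of the pathway were described by lists of their own, all of whose members were tested. No member of the 5 B cell lists passed with age or for 2DG against 6 weeks, and 1 did for 2DG at 10 weeks (edgeR). Of all genes 0.00539%, 0.129% and 7.42% passed in these 3 comparisons. Among the 16 proximal kinases, coreceptors and adaptors, which include Syk and Lyn, the median log2 change was -0.06 with age and -0.10 with 2DG at 10 weeks. Among the 19 downstream genes the medians were -0.05 and -0.01. Akt1, a kinase of the survival pathway, was the call: it stood at 182.5, 188, 158 and 165 CPM in untreated replicates 5 to 8 and at 151, 142, 142 and 140 CPM with 2DG. The groups did not overlap, and the log2 change was -0.27 (SE 0.06, edgeR adjusted p = 0.0184). The call was lost without untreated replicate 5 or 2DG replicate 10 or 11 (edgeR adjusted p = 0.0522, 0.0656 and 0.0637) and when the 6-week libraries were not fitted (0.0758). Akt1 is expressed in many cell types of the spleen.

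The list of inhibitory receptors and phosphatases held 17 genes, not all of which inhibit the receptor or are restricted to B cells. Its medians were -0.17 with age and 0.02 with 2DG at 10 weeks, with 9 of 17 and 8 of 17 negative. Ceacam1, an inhibitory adhesion receptor, had the smallest p with age (log2 change -0.32, SE 0.09, edgeR adjusted p = 0.118). DESeq2 called it lower (adjusted p = 0.0344), where it called 1.87% of its genes. The 16 B lineage factors had 13 negative changes with age, with a median of -0.25, and a median of 0.04 with 2DG at 10 weeks. Ets1, a factor of resting lymphocytes, had the smallest p with age (log2 change -0.37, SE 0.11, edgeR adjusted p = 0.154). DESeq2 did not call it (adjusted p = 0.0726). Among 16 other surface genes of mature B cells 12 were negative with age (median -0.20) and 11 positive with 2DG (median 0.13). Over all genes 51.5% of changes were positive with age and 51.8% with 2DG at 10 weeks. Ccr7, the homing receptor for T cell zones, which T cells carry too, had the smallest p in both (edgeR adjusted p = 0.104 and 0.0827). It stood at 100 CPM in the 6-week libraries, 73.4 CPM in the untreated 10-week group and 92.7 CPM with 2DG. DESeq2 called it lower with age (adjusted p = 0.0168) but did not call it with 2DG at 10 weeks (adjusted p = 0.0643).

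**Figure D5:**
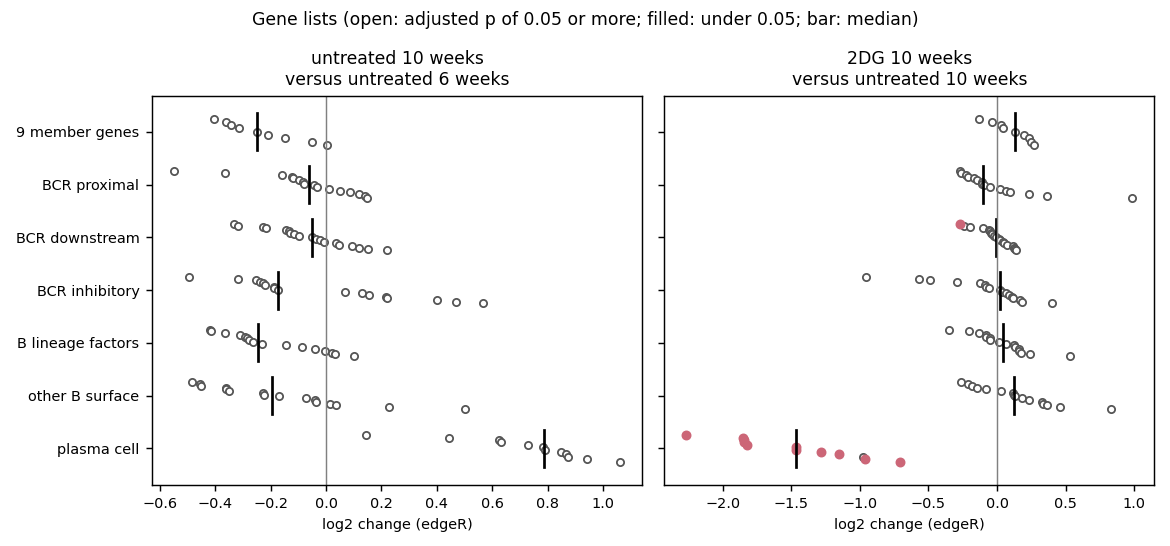
Log2 changes (edgeR) of the 9 genes, of 5 lists of B cell genes and of plasma cell genes with age (left) and with 2DG at 10 weeks (right); points are genes, filled where the adjusted p is under 0.05, and bars are medians. Akt1 is the filled point among the B cell lists, and 11 of 12 plasma cell genes are filled on the right.

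Without untreated replicate 8, a library singled out by its values in the 9 genes, the pathway lists gained calls as those genes did (edgeR). With age, calls lower numbered 2 of 16 proximal, 4 of 19 downstream, 4 of 17 inhibitory, 5 of 16 factor and 5 of 16 surface genes, and 1 downstream (Akt1) and 1 inhibitory gene (Dok1) were called higher. In that fit 3.76% of all genes were called lower and 8.33% in either direction. The proximal calls included Cr2, the complement receptor of marginal zone and follicular B cells (log2 change -1.06, adjusted p = 0.00124). With all libraries Cr2 did not pass, with log2 changes of -0.55 with age (SE 0.31, edgeR adjusted p = 0.394) and 0.98 with 2DG at 10 weeks (SE 0.31, edgeR adjusted p = 0.0806). Cr2 stood at 394, 377.5, 288 and 957 CPM in untreated replicates 5 to 8, against 635 to 818 CPM at 6 weeks and 927 to 1080 CPM with 2DG, so replicate 8 lay within the 2DG range. For 2DG at 10 weeks, still without replicate 8, the proximal list had 1 call higher, Cr2 (1.49, adjusted p = 8.13e-05), and 1 lower, Vav3 (-0.37, adjusted p = 0.0142). The downstream list had 1 higher (Rel) and 1 lower (Akt1), and the inhibitory list 2 higher (Siglecg and Fcrl1) and 3 lower (Lilrb4a, Fcrl5 and Lair1). None of the 16 factors passed, and 4 of 16 surface genes were called higher (Cxcr5, Ccr7, Tnfrsf13c and Fcmr). Of all genes 11.8% were called in that fit, and 4.05% were called higher.

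Genes most like the set were sought among 11248 tested genes, by Pearson's r over the 12 libraries with the mean standardised log2 CPM of the 9. Among the highest were Rubcn (r = 0.99), Pax5 (0.969), Fcrla (0.963), Rfx5 (0.959) and Icam2 (0.959). They were picked for a high r, so it is a description without a test, and Spearman's rho ran from 0.895 to 0.979. With the 2 libraries farthest from the median left out, untreated replicates 6 and 7, r was 0.869 to 0.977. Pax5 encodes the factor that commits cells to the B lineage and Fcrla is a B cell gene, while Rubcn, a regulator of autophagy, is not restricted to B cells. Rubcn stood at 206 ± 17.8 CPM in the 6-week libraries, 168 ± 39.2 CPM in the untreated 10-week group and 186 ± 14.9 CPM with 2DG. None of these 5 passed in any comparison (edgeR adjusted p from 0.283 to 0.824).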

How the data were processed

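Poly(A)-selected libraries were made from total spleen RNA with TruSeq RNA v2, per the labels' protocols, a kit that does not mark strand. The authors deposited whole-number counts per gene. Bowtie2 2.2.0, RSEM 1.2.12 and GRCm38 are named in the submitters' processing notes, with no role given, and how counts became whole or how shared reads were assigned is not stated in the labels. GENCODE M21 supplied symbols (53620 of 53715 identifiers), coordinates and exon lengths.

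Counts were fitted with edgeR 4.0.16 (R 4.3.3; TMM, filterByExpr, robust quasi-likelihood) over all 12 libraries, with Benjamini-Hochberg adjustment over 18542 genes and a threshold of 0.05. The edgeR fit was tested on simulated data. SE is the size of the change divided by the square root of F. The chain ratio was tested with scipy 1.17.1 (exact permutation, adjusted over 3 tests). Alternatives were DESeq2 1.42.0, its size factors in edgeR, no filter, only the compared groups, immunoglobulin genes removed, voom with quality weights (limma 3.58.1), each library left out and, for the ratio, 0.5 counts added.

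Members and lists were chosen with earlier results of these data known. Named were all members, Ighm, Ighd, list members that passed (at most 4 per list and comparison) or had the smallest p, and the 6 genes most like the set (mean log2 CPM of at least 2; no immunoglobulin or T cell receptor segments or predicted models). Cr2 and Dok1 were named after their values were seen. Some results that this rule covers are not reported here.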

Additional observations from a re-analysis of the deposited data

Results flagged for a closer look

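Each group of 4 libraries was checked for a library far from the other 3, over 78 sets of values; chance flags about 1 in 20. One was found. The early B progenitor genes summed to 61 CPM in untreated 10-week replicate 6 and to 98.2 to 105 CPM in the other 3 libraries of its group, a gap of 0.838 of the group's range, above Dixon's critical value. Within that list, Rag1 and Igll1 had 0 counts in replicate 6, which allows up to 0.141 CPM (3 counts, counting error only). Rag1, part of the recombinase that assembles receptor genes, had 31 to 456 counts in the other 11 libraries, and Igll1, a surrogate light chain gene, had 2 to 133. Rag2 was also at 0 there and in no other library. Dntt, expressed in early lymphoid cells, had 75 counts in replicate 6 and 87 to 310 in the others.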

How the results depend on the processing

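Over the 27 changes of single genes, 464 of 486 values under the alternatives kept their direction and side of the threshold, 7 passed newly, 0 lost a call and 15 changed sign. The number of the 9 genes called ranged from 0 to 4 with age, from 0 to 2 for 2DG at 10 weeks and from 0 to 0 for 2DG against 6 weeks when 1 library was left out, and the values above 0 were 4 and 2 without untreated replicate 8. With voom it was 1 for 2DG against 6 weeks (Btk). The sign changes were in Cd79b, Cd22 and Blnk. For 2DG at 10 weeks Cd79b was -0.017 with voom, and ran from -0.123 to 0.121 with 1 library left out (-0.123 without untreated replicate 6, -0.005 without 2DG replicate 12). Cd22 ran from -0.054 to 0.144 there (-0.04 and -0.054 without untreated replicates 6 and 7, -0.002 without 2DG replicate 12). With age Cd22 ran from -0.148 to 0.045 and was 0.036 and 0.045 without untreated replicates 6 and 7. Against 6 weeks, Cd22 with 2DG was 0.002 with no filter, and 0.033 and 0.045 without 6-week replicate 4 and 2DG replicate 10. Blnk with age was -0.012 with voom, and ran from -0.086 to 0.109 with 1 library left out (-0.022 without 6-week replicate 3, -0.086 and -0.069 without untreated replicates 5 and 8). The log2 chain ratio with age ran from -0.014 to 0.087 with 1 library left out (-0.014 without 6-week replicate 1, -0.013 without untreated replicate 5). Ighm with age was -0.117 with voom and ran from -0.002, without untreated replicate 5, to 0.567, and Ighd ran from -0.079 to 0.036 with age (0.001, 0.016 and 0.036 without 6-week replicates 2 and 4 and untreated replicate 7) and from -0.009, without untreated replicate 7, to 0.114 with 2DG at 10 weeks. The causes were not tested. The share of all genes called moved more for 2DG against 6 weeks. It was 2.47% with DESeq2, over 36546 genes not filtered for low counts. Over filtered genes it was 7.54% with only the compared groups and 8.87% with voom, beside 0.129% in the main fit. No paired analysis was possible because replicate numbers run on over the groups. The number of libraries limits the precision for these genes. Replicate 6, with 0 counts of Rag1 and Igll1, had a depth of 21953230 counts, within the range of the other libraries.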
